A study of Mus musculus with 12 samples.

Results

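The 39 genes described here carry glucose and lactate across the cell membrane, break glucose down to lactate, or run the pentose phosphate pathway. They were chosen by symbol from the 24221 rows of a deposited comparison table: 4 carriers, 24 glycolytic enzymes and bifunctional regulators up to lactate dehydrogenase, 4 pyruvate dehydrogenase kinases and 7 pentose phosphate enzymes. All 39 were found, and 37 had an adjusted p-value in the authors' deposited table. Eno2 and Pdk4, each with a few reads, did not.

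The study used mouse acute myeloid leukaemia cells of C57BL/6 background that carry the MLL-AF9 fusion. The comparison is between Riok2fl/fl cells given hydroxytamoxifen (OHT) and Riok2fl/fl cells given ethanol (EtOH), the vehicle, with 3 samples in each group, 72 h after addition. Both groups carry the floxed Riok2 alleles. OHT switches on tamoxifen-dependent Cre recombinases, although the labels name no Cre, and no group given OHT without floxed alleles is analysed here, so the effect of OHT itself and that of losing Riok2 cannot be told apart. The RIOK2 protein, an atypical kinase, helps small ribosomal subunits mature. The other 2 groups of the series, MLL-AF9 cells given DMSO or 1 µM of a RIOK2 inhibitor, are not analysed here. The labels name no clone and no separate cultures. The authors' p-values may therefore cover technical spread only.

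Glycolysis splits 1 glucose into pyruvate and yields ATP and NADH. Hexokinase and phosphofructokinase run its early, controlled steps, and lactate dehydrogenase turns pyruvate into lactate, which leaves the cell through monocarboxylate carriers together with a proton. The pentose phosphate pathway branches off after hexokinase: its oxidative arm makes NADPH, which neutrophils and macrophages use for the oxidative burst, and its non-oxidative arm exchanges sugars between ribose 5-phosphate and glycolytic intermediates. Most steps have several isoforms encoded by separate genes, and leukaemic myeloid cells are known for high glycolytic flux.

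The table holds no value per sample. Each gene has a base mean, the mean normalised read count over the libraries, as well as a log2 fold change and the standard error (SE) of that change. The numerator is not named. Riok2, the targeted gene, had a log2 fold change of -3.60 ± 0.20 (SE) in the authors' deposited table. A positive fold is therefore taken to mean more RNA in OHT. Base means summed to 20307732 normalised reads, of which the 39 members took 1.39%, and the 6 library size factors recovered from the smallest base means ran from 0.697 to 1.88. Folds in this table are pulled towards 0 for genes with few reads, and no SE exceeds 0.747. The level of a tested member in each group was worked out from its base mean and fold, on the assumption that the base mean is the average of both groups. These levels share the limits of the fold and have no error of their own. Levels of different genes are compared only per kilobase (kb) of the principal transcript.

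Of the 37 members tested, 9 were higher and 13 lower in OHT at an adjusted p under 0.05 in the authors' deposited table, and 15 did not pass. Over all 13814 genes tested there, 25.5% were higher, 23.4% lower and 48.9% past the threshold in either direction. Against these shares, 24.3% of the tested members were higher, 35.1% lower and 59.5% either. Where the base mean was 100 or more, as it was for 34 of the members, 59.3% of all tested genes passed, so the members' share is near the background for genes of such abundance. The median log2 fold change of the members was 0.02, beside 0.05 for all genes tested. The members did not move as 1 block: changes ran from -1.96 (Slc16a1) to 2.40 (Ldhb) on the log2 scale in the authors' deposited table, and within most families 1 isoform differed from another. Summed over the tested members, the levels worked out were 299237 normalised reads in EtOH and 266242 in OHT, a ratio of 0.89. This is bulk RNA, where fewer cells of a type and less RNA per cell cannot be told apart.

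**Figure D1:**
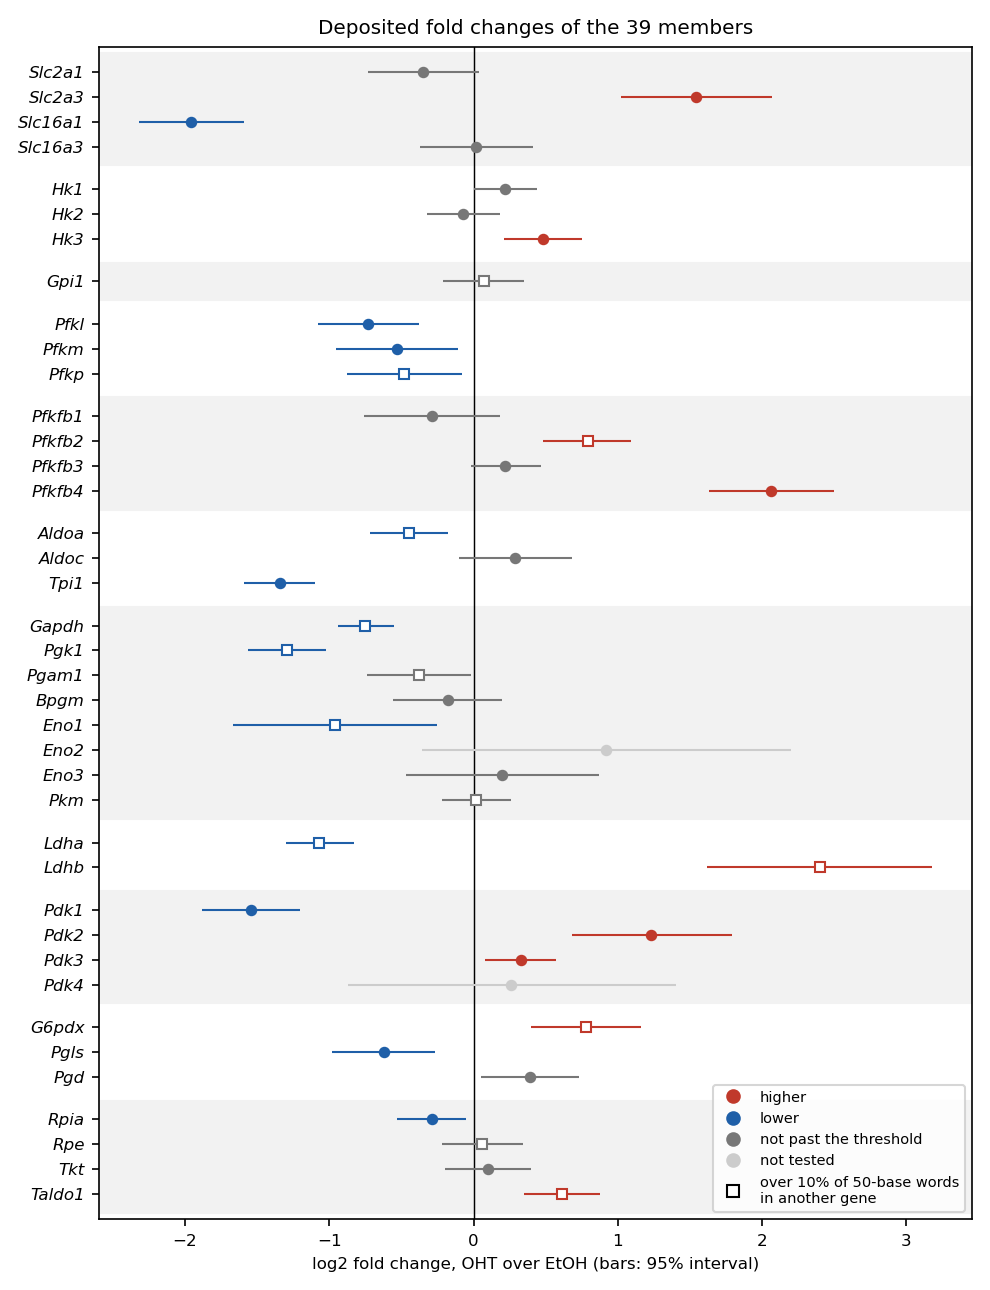
Log2 fold change of each member, OHT over EtOH, from the authors' deposited table (horizontal axis), with members in pathway order on the vertical axis, shaded by role, and bars for the 95% interval from the authors' SE. Red points are the 9 members that rose and blue points the 13 that fell; open squares mark the 14 members with over 10% of their 50-base words in another annotated gene.

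Promoter windows are shown for the 5 members that fell by at least 1 on the log2 scale and for Pfkfb4, the member with the steepest rise among those with a base mean of 100 or more, since these members carry the largest changes of that abundance that have a window. Each window is from RefSeq on GRCm38.p6 and runs from 250 bases before to 50 bases after a transcription start, on the gene's own strand. Capitals mark ACGTG or GCGTG on either strand, the core words bound by hypoxia-inducible factors, and CACGTG, the E-box bound by MYC with MAX, which contains ACGTG on both strands.
Slc16a1 (chr3:104638414-104638713, plus strand): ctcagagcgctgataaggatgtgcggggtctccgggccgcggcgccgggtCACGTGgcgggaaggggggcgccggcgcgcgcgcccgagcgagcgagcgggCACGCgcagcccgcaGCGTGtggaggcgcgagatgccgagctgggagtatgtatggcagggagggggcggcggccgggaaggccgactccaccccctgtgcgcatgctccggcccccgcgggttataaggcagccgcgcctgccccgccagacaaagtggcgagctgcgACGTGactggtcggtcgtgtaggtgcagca
Pdk1 (chr2:71872974-71873273, plus strand): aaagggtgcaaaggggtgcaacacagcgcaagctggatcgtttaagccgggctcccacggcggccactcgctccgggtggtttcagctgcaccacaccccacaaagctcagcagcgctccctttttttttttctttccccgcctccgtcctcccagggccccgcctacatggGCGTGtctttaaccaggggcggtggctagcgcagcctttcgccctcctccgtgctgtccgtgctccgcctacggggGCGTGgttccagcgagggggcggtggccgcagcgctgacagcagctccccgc
Tpi1 (chr6:124814109-124814408, minus strand): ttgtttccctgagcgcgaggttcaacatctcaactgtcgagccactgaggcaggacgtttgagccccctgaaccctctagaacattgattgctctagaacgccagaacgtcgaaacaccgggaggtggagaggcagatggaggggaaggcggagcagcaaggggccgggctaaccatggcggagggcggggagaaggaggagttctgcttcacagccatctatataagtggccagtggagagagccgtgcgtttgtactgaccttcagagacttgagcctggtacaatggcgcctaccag
Pgk1 (chrX:106186850-106187149, plus strand): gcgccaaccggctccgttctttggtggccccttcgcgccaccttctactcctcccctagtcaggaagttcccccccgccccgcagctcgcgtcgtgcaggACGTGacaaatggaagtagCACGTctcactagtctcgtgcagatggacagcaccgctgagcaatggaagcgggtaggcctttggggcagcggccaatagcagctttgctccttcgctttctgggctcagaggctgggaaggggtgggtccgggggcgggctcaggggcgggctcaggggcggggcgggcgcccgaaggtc
Ldha (chr7:46846832-46847131, plus strand): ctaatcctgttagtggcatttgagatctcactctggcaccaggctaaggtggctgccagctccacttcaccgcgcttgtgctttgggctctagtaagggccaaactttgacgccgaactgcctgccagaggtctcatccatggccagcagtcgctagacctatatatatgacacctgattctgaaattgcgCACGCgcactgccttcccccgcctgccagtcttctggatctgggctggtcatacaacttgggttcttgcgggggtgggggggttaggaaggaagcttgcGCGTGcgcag
Pfkfb4 (chr9:108991652-108991951, plus strand): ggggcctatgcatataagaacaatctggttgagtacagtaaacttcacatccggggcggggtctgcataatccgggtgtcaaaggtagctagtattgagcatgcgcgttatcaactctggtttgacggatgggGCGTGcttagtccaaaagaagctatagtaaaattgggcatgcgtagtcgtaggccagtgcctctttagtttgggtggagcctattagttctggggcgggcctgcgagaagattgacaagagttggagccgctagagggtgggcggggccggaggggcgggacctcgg

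The E-box CACGTG occurred in 4 of the 38 members with a window (10.5%: Slc16a1, Pfkfb2, Pfkfb3 and Pdk2) and in 9.98% of 10332 windows of tested genes. ACGTG occurred in 16 of the 38 (42.1%), beside 25.2% of all windows, and GCGTG in 24 (63.2%), beside 50.8%. TGACNNNGC, a core word of the antioxidant response element, was found in 3 of the 38 (7.89%: Slc16a1, Aldoa and G6pdx), beside 15.0%. Among the members past the threshold, ACGTG was found in 5 of the 8 with a window that rose and in 5 of the 13 that fell. GCGTG was found in 6 of those 8 and in 10 of those 13, CACGTG in 2 and 1, and TGACNNNGC in 1 and 2. The Slc16a1 window holds 1 E-box, starting at -200 from the start. The Pgk1 window holds ACGTG at -150 and again at -131. The Tpi1 window holds none of the 4 words, but its start lies 138 bases after that of the principal transcript. That offset was 124 bases for Pfkfb4 and 314 for G6pdx, the largest of the 38. The whole G6pdx window thus lies after the principal start. Matches to these words are letters in a window, not measured binding.

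In each carrier family 1 gene changed and the other did not pass the threshold. Slc2a3, which encodes the high-affinity glucose carrier GLUT3 (chromosome 6, 122727809 to 122801640, minus strand), rose by 1.54 ± 0.27 on the log2 scale with adjusted p = 5.4e-08 in the authors' deposited table. Slc2a3 was worked out at 2280.4 normalised reads in EtOH and 6653 in OHT. Slc2a1, which encodes the widespread carrier GLUT1, stood at -0.35 ± 0.20 in the authors' deposited table (adjusted p = 0.13). Per kb both glucose carriers were close in EtOH, 554 for Slc2a1 and 576 for Slc2a3, and in OHT they stood at 435 and 1680.4. Slc2a3 therefore made up 51.0% of their summed level in EtOH and 79.4% in OHT. The fold of Slc2a1 was lower than that of Slc2a3 by a difference of -1.89 on the log2 scale (95% interval -2.54 to -1.24).

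Slc16a1 had the deepest fall of all members. It encodes MCT1, a proton-linked carrier of lactate and pyruvate (chromosome 3, 104638668 to 104658462, plus strand), and fell by 1.96 ± 0.19 on the log2 scale in the authors' deposited table (adjusted p = 7.2e-24). OHT cells held 25.8% of the EtOH level, 566 against 2196 normalised reads. Slc16a3, which encodes MCT4, a lactate exporter of glycolytic cells, had a fold of 0.02 ± 0.20 in the authors' deposited table (adjusted p = 0.95). The Slc16a3 share of the 2 carriers' summed level per kb was 59.1% in EtOH and 85.0% in OHT. Their folds differed by -1.98 (95% interval -2.51 to -1.44). Bsg, the chaperone basigin that brings both carriers to the membrane, fell by 0.67 ± 0.16 in the authors' deposited table (adjusted p = 8.8e-05).

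The 26 pairs of isoforms, over 10 families, were compared by the difference of their folds, with an SE that takes both genes as independent. Genes measured in the same libraries need not be independent, and the intervals are not adjusted for the number of pairs. Of the 21 pairs with both genes tested, the 95% interval lay on 1 side of 0 in 14 and spanned 0 in 7.

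At the first step of glycolysis only Hk3 of the 3 hexokinases passed. Hk3, the isoform of white blood cells, rose by 0.48 ± 0.14 in the authors' deposited table (adjusted p = 0.0017), and Hk1 stood at 0.22 ± 0.11 (adjusted p = 0.099). Hk2, an isoform often raised in tumours, had -0.07 ± 0.13 in the authors' deposited table (adjusted p = 0.69). Hk3 was also the most abundant hexokinase per kb, at 2472 in EtOH and 3441 in OHT, which is 64.4% and 69.5% of the family. The interval of the difference from Hk3 lay below 0 for Hk2 (-0.91 to -0.17) and spanned 0 for Hk1 (-0.61 to 0.09). Gpi1, which turns glucose 6-phosphate into fructose 6-phosphate, had 0.07 ± 0.14 in the authors' deposited table (adjusted p = 0.72), at a base mean of 27748.

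All 3 phosphofructokinase genes fell. These enzymes commit fructose 6-phosphate to glycolysis, and the folds in the authors' deposited table were -0.73 ± 0.18 for Pfkl (adjusted p = 1.5e-04), -0.53 ± 0.22 for Pfkm (adjusted p = 0.030) and -0.48 ± 0.20 for Pfkp (adjusted p = 0.039). Pfkm and Pfkp passed narrowly and did not stay past an adjusted p under 0.01. The platelet isoform Pfkp was the most abundant per kb, with 56.1% of the family in EtOH and 59.6% in OHT, and the muscle isoform Pfkm the least. The interval of the difference spanned 0 in all 3 pairs, as in Pfkl against Pfkm (-0.75 to 0.35). The summed level per kb was 1850.2 in EtOH and 1248 in OHT.

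The 4 PFKFB genes encode enzymes that make and remove fructose 2,6-bisphosphate, the activator of phosphofructokinase, and their folds were spread widely. Pfkfb4 (chromosome 9, 108991778 to 109032228, plus strand) rose by 2.06 ± 0.22 in the authors' deposited table (adjusted p = 6.9e-19), from 584 to 2441 normalised reads by the levels worked out. Pfkfb2, the heart isoform, rose by 0.79 ± 0.16 in the authors' deposited table (adjusted p = 2.3e-06). Pfkfb3, the isoform that favours the kinase over the phosphatase reaction most, had 0.22 ± 0.12 (adjusted p = 0.13) and the liver isoform Pfkfb1 -0.29 ± 0.24 (adjusted p = 0.33) in the authors' deposited table. Pfkfb3 was the leading isoform in EtOH with 62.6% of the family per kb and Pfkfb4 had 19.7%. In OHT they stood at 41.0% and 46.1%, and the summed level of the family went from 851 to 1518 per kb. The fold of Pfkfb4 differed from each of the other 3: the closest was Pfkfb2, at -1.28 relative to Pfkfb4 (95% interval -1.81 to -0.74).

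**Figure D2:**
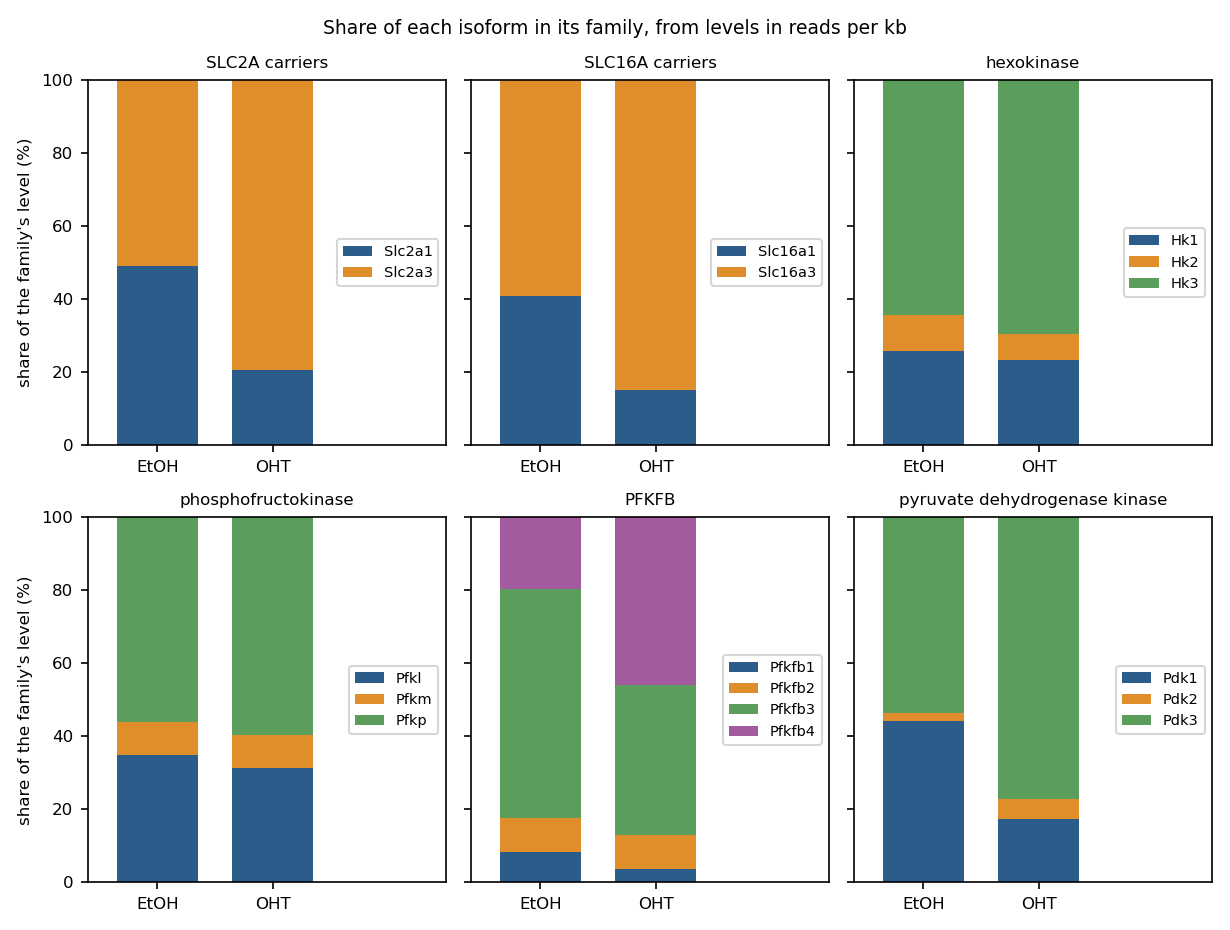
Share of each tested isoform in its family (percent, from levels per kb of transcript worked out for EtOH and OHT), for 6 families. The shares that gained most are those of Slc2a3 (51.0% to 79.4%), Pfkfb4 (19.7% to 46.1%), Slc16a3 (59.1% to 85.0%) and Pdk3 (53.6% to 77.0%), and Pdk1 went from 44.3% to 17.4%, while the hexokinase and phosphofructokinase shares move little.

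Of the enzymes between aldolase and pyruvate kinase, Tpi1 and Pgk1 had the deepest falls. Tpi1, the triose phosphate isomerase (chromosome 6, 124810586 to 124814296, minus strand), fell by 1.34 ± 0.13 in the authors' deposited table (adjusted p = 1.7e-24), to 39.4% of its EtOH level. Pgk1, the phosphoglycerate kinase that makes the first ATP of the payoff phase (chromosome X, 106187100 to 106203699, plus strand), fell by 1.29 ± 0.14 there (adjusted p = 3.5e-19), to 41.0%. Gapdh, the glyceraldehyde 3-phosphate dehydrogenase often used as a reference gene, fell by 0.75 ± 0.10 in the authors' deposited table (adjusted p = 2.5e-12), to 59.7%. Aldoa, the main aldolase, fell by 0.45 ± 0.14 in the authors' deposited table (adjusted p = 0.0027). The brain aldolase Aldoc, which made up 0.592% of the family per kb in EtOH, had 0.29 ± 0.20 there (adjusted p = 0.23). The enzymes after Pgk1 gave smaller or less certain values. Pgam1, the phosphoglycerate mutase, had -0.38 ± 0.18 in the authors' deposited table (adjusted p = 0.074), and its relative Bpgm, which makes 2,3-bisphosphoglycerate, had -0.18 ± 0.19 (adjusted p = 0.46). Pkm, the pyruvate kinase gene whose M1 and M2 splice forms a gene-level table cannot separate, had 0.02 ± 0.12 in the authors' deposited table (adjusted p = 0.91, 95% interval -0.22 to 0.26).

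The enolase genes stand apart in level. Enolase makes phosphoenolpyruvate, and Eno1 is its widespread form, yet Eno1 had a base mean of only 105 and fell by 0.96 ± 0.36 in the authors' deposited table (adjusted p = 0.019). Per kb it averaged 51.7 normalised reads, beside 3309.8 for Pgk1 and 13261 for Pkm, the enzymes on either side of this stretch of the pathway. Of the 50-base words of the Eno1 transcript, 70.5% also occur in the retrogene Eno1b, which had a base mean of 30.5 and a fold of -0.11 ± 0.46 in the authors' deposited table (adjusted p = 0.86). The sources used here do not give how reads that match both genes were counted, so the level and fold of Eno1 are uncertain. The muscle form Eno3 (base mean 59.7) had 0.20 ± 0.34 in the authors' deposited table (adjusted p = 0.66). The neuronal form Eno2 could be resolved into whole reads: 5, 1 and 3 in the 3 libraries on the side where the fold is above 0, and 0 in each library on the other side. With 9 reads in all, no change was detectable at this depth.

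Shared sequence touches other members too. Gapdh shares 82.5% of its 50-base words with other annotated genes, Pgk1 68.0%, Pgam1 41.5% and Pkm 34.4%, while 19 of the 39 members share none. Ldhb, the largest rise, shares 27.0%, Gpi1 25.3%, Pfkfb2 25.1%, Ldha 17.1% and Tpi1 7.51%. Slc16a1, Pfkfb4, Pdk1 and Slc2a3 share 0. The part of shared reads in the folds of Gapdh, Pgk1, Pgam1, Ldhb and the other members that share words was not tested.

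**Figure D3:**
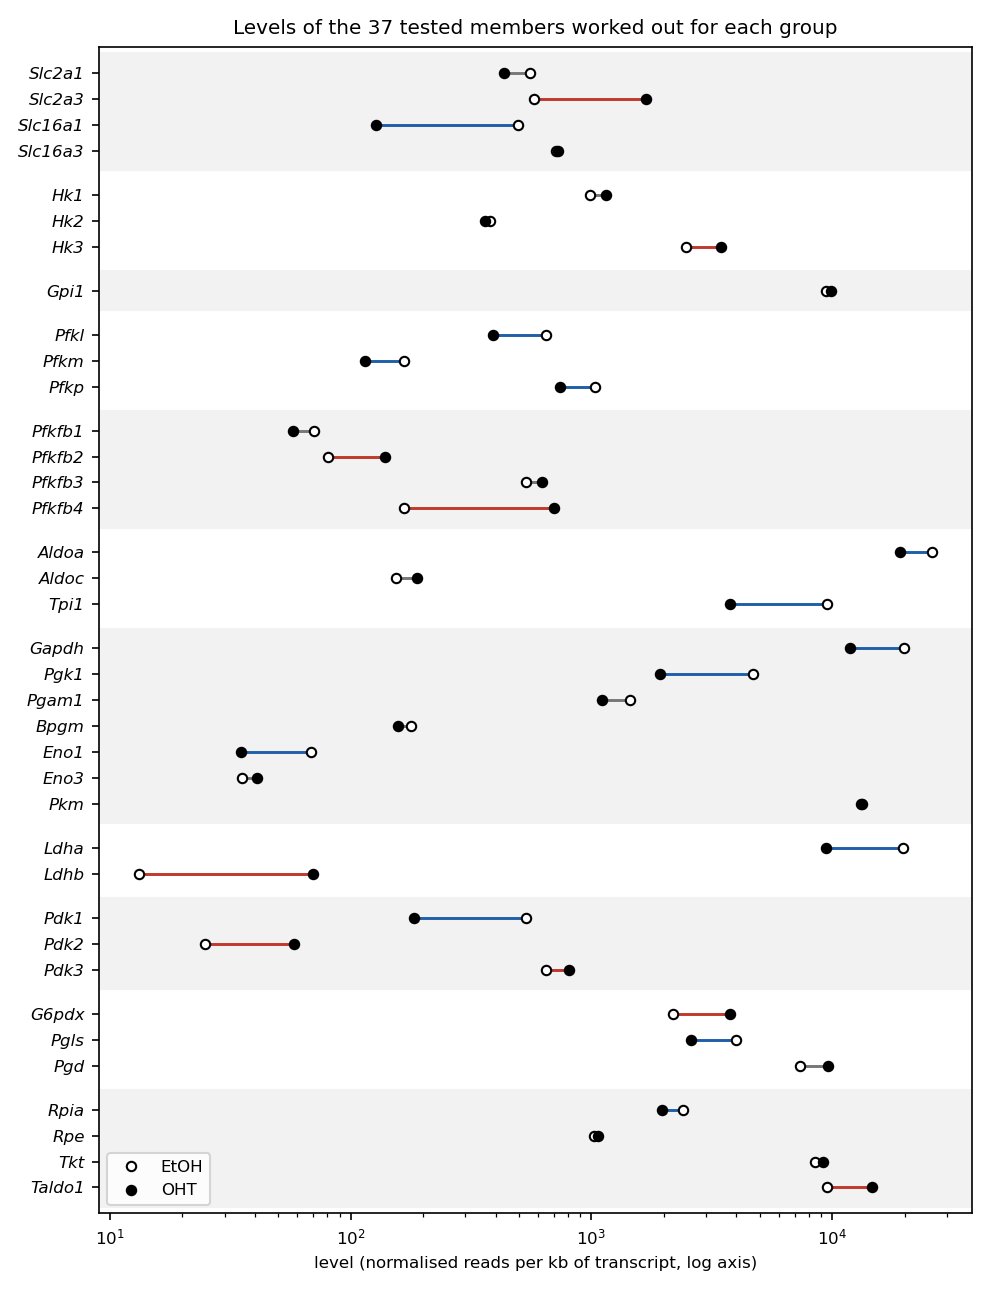
Level of each of the 37 tested members in EtOH (open) and OHT (filled), in normalised reads per kb of principal transcript on a log axis, worked out from the authors' base means and folds, with lines red where the member rose, blue where it fell and grey where it did not pass. Aldoa, Gapdh, Ldha and Pkm are the most abundant in EtOH; Ldhb, at 13.2 in EtOH and 69.8 in OHT, stays far below Ldha, at 19698 and 9403.

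The 2 lactate dehydrogenase genes moved apart further than any other tested pair. Ldha encodes the M subunit, which favours lactate formation (chromosome 7, 46841475 to 46855627, plus strand), and fell by 1.07 ± 0.12 in the authors' deposited table (adjusted p = 3.2e-17). Ldha was worked out at 34786 normalised reads in EtOH and 16606 in OHT. Ldhb, the H subunit of oxidative tissues (chromosome 6, 142490249 to 142507957, minus strand), rose by 2.40 ± 0.40 in the authors' deposited table (adjusted p = 1.5e-08), but with a base mean of 54.1. Its rise is the largest of any member and rests on few reads. Ldhb made up 0.0670% of the family per kb in EtOH and 0.737% in OHT, so the sum of both genes followed Ldha, at 0.48 of the EtOH level. The folds differed by -3.47 (95% interval -4.28 to -2.65).

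Pyruvate dehydrogenase kinases switch off the enzyme complex that takes pyruvate into the citric acid cycle, and the 3 tested genes all changed, in both directions. Pdk1 (chromosome 2, 71873224 to 71903858, plus strand) fell by 1.54 ± 0.17 in the authors' deposited table (adjusted p = 1.8e-17), to 34.4% of its EtOH level. Pdk2 (chromosome 11, 95026258 to 95041354, minus strand) rose by 1.23 ± 0.28 in the authors' deposited table (adjusted p = 6.3e-05) at a base mean of 93.4. Pdk3 rose by 0.33 ± 0.12 there (adjusted p = 0.021), a call that is lost when all folds are moved by the median of the tested genes (adjusted p = 0.054). Per kb, Pdk1 went from 44.3% of the tested family to 17.4% and Pdk3 from 53.6% to 77.0%, while the summed level differed little, 1205 against 1052. Pdk4, raised by fasting in muscle and liver, had 5 reads in all: 1, 3 and 0 in the libraries on the side of folds above 0, and 0, 0 and 1 on the other side.

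The pentose phosphate genes gave 2 rises, 2 falls and 3 that did not pass, with folds within 0.78 of 0. All 7 had a base mean of 100 or more, and the 57.1% past the threshold is near the 59.3% of all tested genes of that abundance. In the oxidative arm, G6pdx, the glucose 6-phosphate dehydrogenase that makes the first NADPH (chromosome X, 74409483 to 74429194, minus strand), rose by 0.78 ± 0.19 in the authors' deposited table (adjusted p = 2.1e-04). Pgls, the lactonase of the next step, fell by 0.62 ± 0.18 there (adjusted p = 0.0018). Pgd, which makes the second NADPH, had 0.39 ± 0.18 in the authors' deposited table (adjusted p = 0.053), and passed when the adjustment covered only genes with a base mean of 100 or more (adjusted p = 0.044). In the non-oxidative arm, the transaldolase gene Taldo1 (chromosome 7, 141392199 to 141402968, plus strand) rose by 0.61 ± 0.14 in the authors' deposited table (adjusted p = 2.8e-05). Rpia, the isomerase that makes ribose 5-phosphate, fell by 0.29 ± 0.12 there (adjusted p = 0.038). The transketolase gene Tkt had 0.10 ± 0.15 (adjusted p = 0.62) and the epimerase gene Rpe 0.06 ± 0.15 (adjusted p = 0.76) in the authors' deposited table. Their levels per kb in OHT ran from 1069 for Rpe, through 1962 for Rpia, 2595 for Pgls and 3759 for G6pdx, to 9131 for Tkt, 9637 for Pgd and 14623 for Taldo1, beside 9403 for Ldha. In EtOH Ldha had stood at 19698 and Taldo1 at 9559.

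Of 115 further genes of sugar metabolism in 10 lists, 100 were tested, and 24 were higher (24.0%) and 29 lower (29.0%), with a median of 0.04. The 53.0% past the threshold is close to the 48.9% of all genes tested (25.5% higher, 23.4% lower). Of the 100, 84 had a base mean of 100 or more, where 59.3% of all tested genes passed (29.2% higher, 30.0% lower). The counts of the single lists below are given as descriptions. Among 11 other hexose and monocarboxylate carriers tested, 3 rose and 2 fell. The authors' deposited table gives Slc37a2, a sugar phosphate exchanger, at 3.06 ± 0.34, the lysosomal hexose carrier Slc2a6 at 2.27 ± 0.28, and the glucose 6-phosphate carrier Slc37a4 at -0.99 ± 0.20. Of 8 tested paralogs outside the member list, 2 rose and 0 fell: the ADP-dependent glucokinase Adpgk (1.86 ± 0.25) and the muscle mutase Pgam2 (1.11 ± 0.34) in the authors' deposited table. Adpgk, with a base mean of 8442, takes the same step as the hexokinases but uses ADP. Of 5 gluconeogenesis genes 3 fell and 0 rose, led in the authors' deposited table by mitochondrial Pck2 (-2.37 ± 0.24), which makes phosphoenolpyruvate from oxaloacetate, and by the glucose 6-phosphatase G6pc3 (-0.86 ± 0.17).

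Of 15 glycogen genes 6 were higher (40.0%, beside 25.5% of all genes tested) and 2 lower (13.3%, beside 23.4%). The 53.3% past the threshold is near the 48.9% over all genes. Of these 15, 14 had a base mean of 100 or more, where 29.2% of all tested genes were higher, 30.0% lower and 59.3% either. The phosphatase subunit Ppp1r3d (1.37 ± 0.28) was among the rises in the authors' deposited table, and the branching enzyme Gbe1 (-0.56 ± 0.14) and the kinase subunit Phkb (-0.38 ± 0.10) were the falls. The hexosamine pathway gave 3 rises and 2 falls among 8. In the authors' deposited table Nagk, which salvages N-acetylglucosamine, had 0.79 ± 0.15, the entry enzyme Gfpt1 0.77 ± 0.22, Pgm3 -0.74 ± 0.24 and Gnpnat1 -1.07 ± 0.22. Among 9 genes of fructose, mannose and galactose entry 1 rose and 2 fell. The authors' deposited table gives the galactokinase Galk1 at -1.76 ± 0.16, the mannomutase Pmm2 at -0.38 ± 0.13 and the mutarotase Galm at 0.97 ± 0.30. Among 6 further pentose phosphate and ribose genes 1 rose and 3 fell. They include, in the authors' deposited table, Prps1, which makes phosphoribosyl pyrophosphate (-1.08 ± 0.26), the ribokinase Rbks (-1.06 ± 0.17) and Pgm2l1 (0.84 ± 0.20).

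At the entry of pyruvate into mitochondria 4 of 10 genes fell and 2 rose. In the authors' deposited table the pyruvate dehydrogenase subunits Dld (-0.65 ± 0.16) and Pdhb (-0.64 ± 0.17) fell, and the pyruvate carrier subunit Mpc2 (0.68 ± 0.16) and the phosphatase regulator Pdpr (0.78 ± 0.34) rose. Of 10 genes of the glycerol phosphate and malate shuttles 5 fell and 0 rose, with Got1 (-1.27 ± 0.21) and Slc25a13 (-0.71 ± 0.21) deepest in the authors' deposited table. The 18 tested regulators gave 6 rises and 6 falls (66.7% past the threshold). Hif1a, the hypoxia-inducible factor subunit that is controlled mainly as a protein, had 0.18 ± 0.13 in the authors' deposited table (adjusted p = 0.25). Egln3 (-2.09 ± 0.29) and Bnip3 (-1.66 ± 0.33) fell there, as did Myc (-1.63 ± 0.11), a transcription factor that can drive glycolytic genes. Txnip, which restrains glucose uptake and is induced by glucose through MondoA, rose by 1.12 ± 0.30, and its relative Arrdc4 by 1.01 ± 0.30 in the authors' deposited table. The part of these regulators in the changes of the members was not tested.

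**Figure D4:**
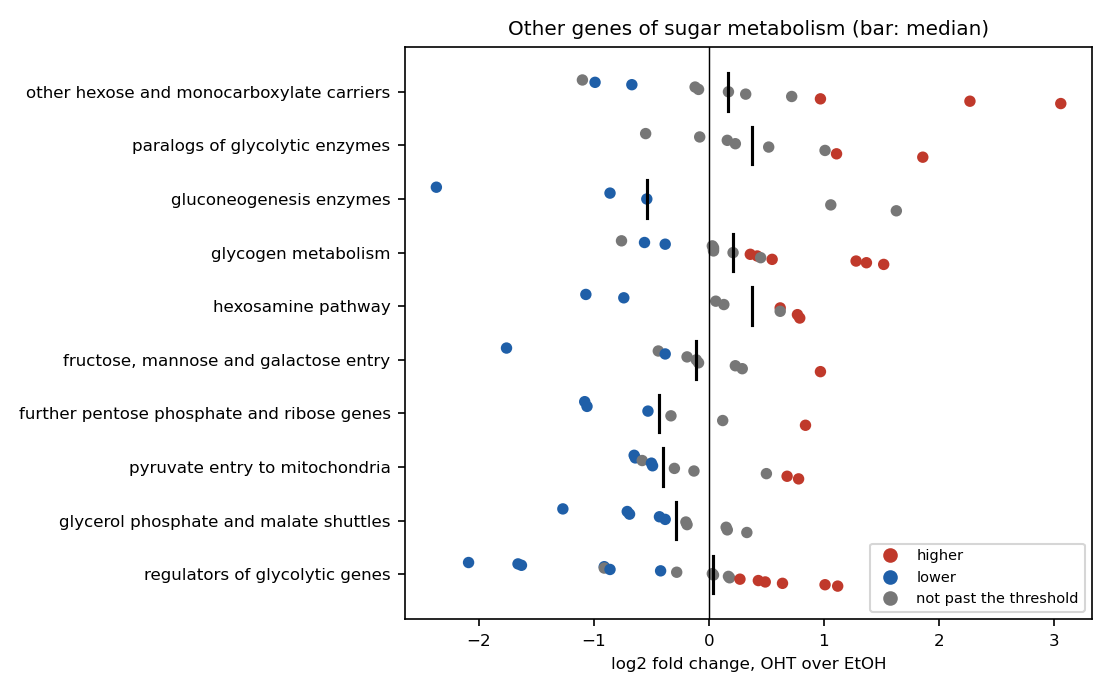
Log2 fold change, OHT over EtOH, of the 100 tested genes in the 10 further lists of sugar metabolism, from the authors' deposited table; each point is 1 gene, coloured by its call, and the black bar is the list's median. Lists with calls in 1 direction only are the gluconeogenesis enzymes (3 of 5 lower), the shuttles (5 of 10 lower) and the paralogs (2 of 8 higher). Over all genes tested, 25.5% were higher and 23.4% lower.

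Markers of maturing myeloid cells moved along with these changes. Markers of the labelled cell type were present: 6 of 6 pan-leukocyte and myeloid markers were tested, of which 5 rose and 0 fell, and all 5 MLL-AF9 programme genes were detected and fell. All 10 mature neutrophil markers tested rose, with a summed level worked out at 192189 normalised reads in EtOH and 776889 in OHT. Among all tested genes with a base mean of 100 or more, as every marker counted so far had, 29.2% were higher and 30.0% lower. The 9 monocyte and macrophage markers tested also rose, from 38439.7 to 290896, beside the same shares. Lyz2 alone made up most of that list's base mean (131712 of 164668). Its fold of 3.05 ± 0.55 had the widest error of the list. Among 8 progenitor and primary granule genes, 5 fell (62.5%, beside 23.4% of all genes tested) and 0 rose, with sums of 235758 and 67255. The falls were Ctsg, Mpo, Prtn3, Elane and Ms4a3. Flt3 (-1.18 ± 0.56), Kit (0.31 ± 0.26) and Cd34 (1.05 ± 0.60) did not pass the threshold in the authors' deposited table. Of the markers of other cells, Cd3e, Ms4a1 and the globin genes Hba-a1, Hba-a2, Hbb-bs and Hbb-bt were at 0 reads. The T, B and NK list summed to 14.2 and 43.8 normalised reads (2 of 2 tested rose), the erythroid and megakaryocyte list to 779 and 1736 (0 of 5 passed), the stromal, endothelial and epithelial list to 1522 and 1811 (1 of 4 rose). Mast cell, basophil and eosinophil genes were present at 17051 and 25031, with 0 of 3 tested genes past the threshold. Mcpt8, Prg2 and Epx had no adjusted p despite base means of 3144, 2880.2 and 379, so no change can be stated for them. Cpa3 had a wide error, at 0.64 ± 0.62 in the authors' deposited table. So did Itga2b (1.19 ± 0.74), Pf4 (1.24 ± 0.73) and Gata1 (0.93 ± 0.75) of the erythroid and megakaryocyte list. The lack of a call for these genes does not show that they stayed level. The part of maturation in the changes of the glycolytic genes was not tested.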

How the data were processed

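TruSeq libraries came from 12 samples in 4 groups of 3, per the labels' protocols. The submitters' processing notes name STAR 2.7.2b, DESeq2, DESeq, HTSeq 0.9.1 and Trimmomatic 0.38.0, and build mm10. The sources used here do not give the annotation or the counting options. The authors deposited 1 comparison table, with 0 columns of values per sample. The base mean is a signal that the authors normalised by library size factors and averaged over libraries before it was deposited. The log2 fold change and its log2 standard error were computed by the authors and deposited without column names. The authors also deposited the Wald score of each gene. The p-value and the adjusted p-value are those the authors computed and deposited. On the values, score matched fold over error to within 7.6e-08, and Benjamini-Hochberg adjustment of 13814 p-values gave the adjusted ones to within 2.3e-07. No test across samples was made here: the planned case of a comparison table applied, with the authors' adjusted p under 0.05 as the threshold.

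From the table, levels per group, isoform shares and differences between isoforms were computed with Python 3.11.15, pandas 2.3.3 and scipy 1.17.1. A level per group assumes equal groups. Reads per library were solved from sums of 6 steps, each worth 1 read in 1 library. Re-centring and read recovery were tried on simulated data before use. Positions, principal transcripts and shared words of 50 bases were taken from GENCODE M21 (GRCm38, which is mm10). Promoter windows came from RefSeq on GRCm38.p6, per gene the window nearest to the principal transcript's start, with 38 of 39 members matched. The members and lists were chosen with earlier results of these data known. All members are reported; of each further list, the 2 highest and 2 lowest folds past the threshold are named, plus Hif1a, Myc and Txnip. A few results that the rule would name are not reported here. Alternatives were other thresholds, filters on low values and wide errors, a shift by the median, and leaving out 8 members. Those 8 were listed by name, not chosen by their share of 50-base words.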

Additional observations from a re-analysis of the deposited data

How the results depend on the processing

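Moving all folds by the median of the tested genes, adjusting over all genes with a p-value, leaving out genes with a standard error above 0.5, leaving out genes with a base mean under 100, and thresholds of 0.01 or 0.1 each kept the counts of members past the threshold within 1.5 times those reported. With a log2 fold change of at least 1 in size required, 9 members passed, 4 higher and 5 lower, and 18 further genes of sugar metabolism passed in place of 53. With Gapdh, Eno1, Pgk1, Aldoa, Pgam1, Ldha, Tpi1 and Pkm left out, 7 members were lower in place of 13 and 9 higher, since 6 of the falls are among those 8. The shift by the median also gave Pgam1 an adjusted p of 0.040. The median of the members was 0.02 as reported, -0.03 after that shift and -0.12 with a base mean of at least 100, so its sign changed with the setting. Without the filter on low values the adjusted p was 0.31 for Eno2 and 0.86 for Pdk4. No paired analysis was possible because the table holds no value per sample; for the same reason, leaving out replicates, a different tool and a pseudocount were not run. Depth limits Ldhb, Eno3, Pdk2, Eno2 and Pdk4, each with a base mean under 100. How far the pull towards 0 altered their folds was not measured.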

Other observations

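Of the 39 members, 9 lie on chromosome 6. Eno2, Tpi1 and Gapdh lie within 406 kb there (chromosome 6, 124760053 to 125166467, GRCm38), and they did not share 1 value. Tpi1 fell by 1.34 ± 0.13 and Gapdh by 0.75 ± 0.10 on the log2 scale in the authors' deposited table, while Eno2 had 9 reads over 6 libraries. Ldhb and Slc2a3, which rose, and Rpia, which fell, lie elsewhere on the same chromosome.

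Exons of some members overlap those of another gene, and the sources used here do not give whether counting used strand. The overlap was 20.6% of exonic bases for Pgls (with Fam129c), 19.5% for Pfkfb2 (with Gm29427), 17.9% for Rpe (with Kansl1l), 15.3% for Pkm (with Gm49759) and 13.6% for G6pdx (with Ikbkg). Pfkp shares 17.1% of its 50-base words with its neighbour Pitrm1, which fell by 0.93 ± 0.15 in the authors' deposited table (adjusted p = 1.7e-08), beside -0.48 ± 0.20 for Pfkp. The part of such reads in these folds was not tested.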
